A study of Mus musculus with 2 samples.

Results

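The microRNA genes Mir335, Mir675, Mir483, Mir296 and Mir298 lie at 4 imprinted loci of the mouse genome: Mest, H19, Igf2 and Gnas. They are 5 of the 1973 microRNA genes in the count tables, and were taken by the symbol that GENCODE release M21 gives their identifiers. Small RNA under 30 bases was sequenced from lungs of healthy B6NCrl mouse embryos at embryonic day 16.5, when epithelial tubes branch through a mesenchyme rich in vessels. The samples are a single group of 2 biological replicates with no treatment, mutant or other tissue, and each replicate is a pool of lungs from male and female embryos. Replicate 2 pooled 41 embryos, and the number for replicate 1 is not given in the sources used here. Every level below is therefore that of a whole lung pool, and fewer cells of a type and less RNA per cell cannot be told apart.

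At an imprinted gene the parental origin of the chromosome decides which copy is transcribed. Mest and Igf2 are transcribed from the paternal copy and H19 from the maternal copy, and the Gnas locus makes transcripts of either origin, with Nespas read from the paternal copy against the direction of Gnas. Many of these genes act on growth before birth: Igf2 is a fetal growth factor, H19 a long non-coding RNA that lies beside it, and Mest a protein of mesodermal tissues. A microRNA in an intron or exon of such a gene can be cut from the same primary transcript, and it then represses messenger RNAs that pair with its seed, bases 2 to 8 of the mature strand. The count tables hold neither alleles nor host transcripts, so imprinting itself was not measured.

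All 5 genes have a hairpin and both arms in the RefSeq microRNA table of build GRCm38.p6, which gives 10 mature sequences of 21 to 24 bases. They are printed 5′ to 3′ with the seed in capitals, because the seed shows whether the genes could share targets with each other or with another microRNA. Mir335 has miR-335-5p at chr6:30741314-30741336 and miR-335-3p at chr6:30741354-30741375, both on the plus strand.
miR-335-5p: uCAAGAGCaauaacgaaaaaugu
miR-335-3p: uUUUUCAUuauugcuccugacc
Mir675 has miR-675-5p at chr7:142577112-142577133 and miR-675-3p at chr7:142577078-142577099, and Mir483 has miR-483-5p at chr7:142654968-142654989 and miR-483-3p at chr7:142654932-142654952, all on the minus strand.
miR-675-5p: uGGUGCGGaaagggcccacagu
miR-675-3p: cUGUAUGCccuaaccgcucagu
miR-483-5p: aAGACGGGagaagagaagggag
miR-483-3p: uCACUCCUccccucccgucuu
Mir296 has miR-296-5p at chr2:174267093-174267113 and miR-296-3p at chr2:174267058-174267079, and Mir298 has miR-298-5p at chr2:174267553-174267575 and miR-298-3p at chr2:174267512-174267535, again on the minus strand.
miR-296-5p: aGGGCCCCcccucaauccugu
miR-296-3p: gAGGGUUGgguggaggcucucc
miR-298-5p: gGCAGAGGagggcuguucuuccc
miR-298-3p: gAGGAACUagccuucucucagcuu

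The 10 seeds differ from each other. None of the 10 is the seed of another gene among the 1738 mature sequences of the table, so in that table no further gene carries any of these seeds. Genes that lie side by side did not resemble each other in seed either: neither arm of Mir296 has a seed of Mir298, and neither arm of Mir675 has a seed of Mir483. The tables count reads per hairpin gene, so the share of the 5p and the 3p arm is not known for any of them.

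The hairpins sit in different parts of their loci (mm10, 1-based). Mir335 (ENSMUSG00000065501.1, chromosome 6 at 30741299 to 30741396, plus strand) is 17.8 kb from the start of Mest, on its strand. It lies in an intron of all 7 Mest transcripts that span it, and in 4 of them this is intron 2. Mir675 (ENSMUSG00000076275.1, chromosome 7 at 142577064 to 142577147, minus strand) is 0.996 kb from the start of H19 and overlaps an exon in 3 of the 4 H19 transcripts that span it. Mir483 (ENSMUSG00000070140.1, chromosome 7 at 142654924 to 142654996, minus strand) is in an intron of all 7 Igf2 transcripts that span it, intron 2 in 6 of them, and also within the overlapping gene Gm49394 on the same strand. Its distance from Mir675 is 77.8 kb.

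Mir296 (ENSMUSG00000065521.1, chromosome 2 at 174267047 to 174267125) and Mir298 (ENSMUSG00000065410.1, chromosome 2 at 174267504 to 174267585) are 378 bases apart on the minus strand, within no other gene annotated in release M21. They lie beyond the annotated end of Nespas, which is transcribed on the same strand, at a gap of 13.7 kb from Mir298. The gap from Mir298 to Gnas, which is transcribed on the opposite strand, is 16.7 kb. Of the counts of both microRNA genes, 0 were on the Gnas strand in either library. The counted reads thus have the direction of the annotated hairpins, which is also that of Nespas. Reads of a hairpin carry its strand in any case, so whether the pair is cut from a Nespas transcript was not tested. Within 100 kb of each gene the tables hold only Mir675 beside Mir483, Mir296 beside Mir298, and the predicted gene Gm27591 on the other strand near the Gnas pair, at 0 counts in both libraries.

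**Figure D1:**
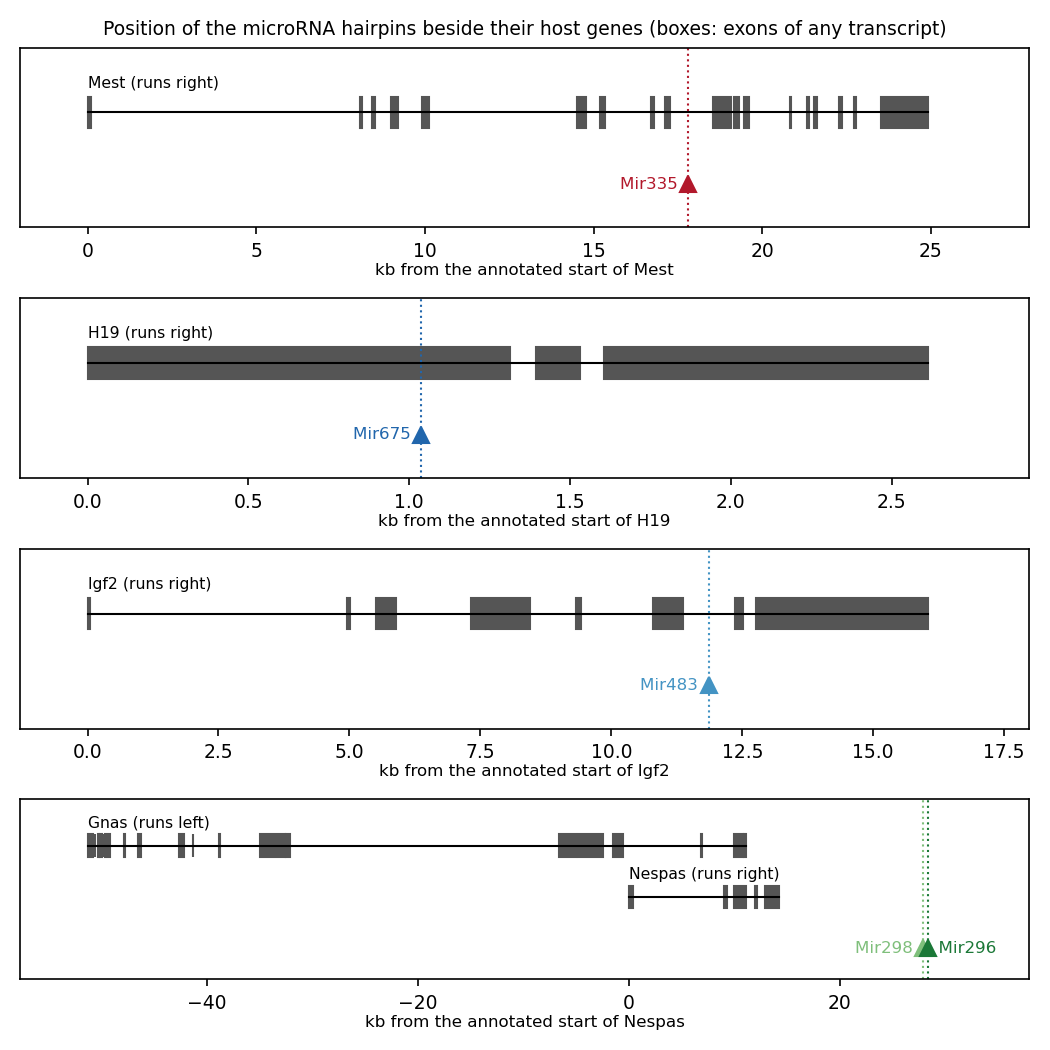
Map of each locus, with the distance in kb from the annotated start of the host gene (Nespas in the lowest panel) on the x axis, boxes for exons of any GENCODE M21 transcript and triangles for the microRNA hairpins. Mir335 and Mir483 lie in introns, Mir675 in an exon of H19, and Mir298 and Mir296 at 27.9 and 28.3 kb from the start of Nespas, past its annotated end.

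The tables hold 6376715 counts in microRNA genes for replicate 1 and 4123748 for replicate 2, and levels are given as counts scaled to a gene total of 1000000 (CPM). A count of 0 allows up to 0.470 CPM in replicate 1 and 0.727 CPM in replicate 2. Detection was set at 10 counts or more in both libraries, which 347 genes reached, and all 5 genes of the imprinted loci were among them. The lung label was checked against microRNA markers: 5 of 5 epithelial markers were detected and summed to 32597 and 33935 CPM in replicates 1 and 2, 3 of 3 multiciliated markers to 15414 and 19573, the endothelial marker Mir126a stood at 87277 and 79120, and 4 of 4 smooth muscle and mesenchymal markers summed to 75720 and 78156. The smooth muscle and mesenchymal sum was mostly Mir143 (70224 and 72270 CPM), with Mir199a-1 at 5.96 and 5.33. The multiciliated sum was mostly Mir449a (14580.5 and 18444.9 CPM), with Mir34b at 30.3 and 48.3. Markers of other tissues were lower in sum, though some single genes of them stood above Mir199a-1 and Mir34b. The 3 blood genes summed to 1723 and 1380 CPM. The 4 genes of skeletal and heart muscle summed to 1059 and 1178. The blood list also held Mir142, a symbol with no match among the genes counted. Mir142b, at 1149 and 1258 CPM, was not in the blood sum. Of the 3 brain genes only Mir137 had counts, at 139 and 142 CPM. Mir124a-1 and Mir9-2 had 0 counts in both libraries. Both are named as copies within a family, and reads that match several loci are in no gene's count, so these zeros do not show absence. Mir199a-1 is likewise named as a copy and can be counted too low. The liver marker Mir122 was at 111 and 601 CPM. Mir122 stood apart between the libraries.

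The members covered a wide range of levels, and the order was the same in both libraries. Mir335 was by far the highest, then came the Gnas pair, then Mir483 of Igf2, and Mir675 of H19 was the lowest. Together they held 5.67% of gene counts in replicate 1 and 5.45% in replicate 2 (mean 5.56% ± 0.154, SD, n = 2). Mir335 alone made up 91.1% and 90.5% of that.

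Mir335, known from human breast cancer as a microRNA that restrains metastasis, had 329367 counts in replicate 1 and 203510 in replicate 2, which is 51652 and 49351 CPM. The 95% intervals, exact Clopper-Pearson and covering counting error only, were 51480 to 51824 CPM and 49142 to 49560 CPM, and they do not overlap. Its mean of 50501 CPM ± 1627 (SD, n = 2) put it at rank 6 among detected genes, the same rank in each library. The genes next to it in mean level were Mirlet7i above (59383 CPM ± 6815) and Mir99a below (35435 ± 2391), and in neither case did the ranges over the libraries overlap with that of Mir335. No member came near it: Mir335 was 18.6-fold above Mir296, the next highest, in replicate 1 and 17.5-fold in replicate 2.

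Mir296, which in mouse embryonic stem cells represses Nanog and in human endothelium acts in vessel growth, had 17682 and 11657 counts in replicates 1 and 2. Its level was 2773 CPM (interval 2732 to 2814) and 2827 CPM (2776 to 2879), with a mean of 2800 ± 38.1 (SD, n = 2) and rank 55 of the detected genes. Mir22 lay next above at 2890 CPM ± 43.8, and Mir375, the neuroendocrine microRNA, next below at 2723 ± 153. The range of Mir375 overlaps with that of Mir296, so the order of these neighbours is within the spread, and that of Mir22 does not.

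Mir298, reported in mouse to repress the secretase gene Bace1, had 10804 and 7059 counts, or 1694 CPM (1663 to 1727) in replicate 1 and 1712 CPM (1672 to 1752) in replicate 2. Its mean was 1703 ± 12.4 CPM (SD, n = 2), at rank 80. Neither Mir324 above it (1756 ± 24.8) nor Mir425 below it (1607 ± 113) overlapped with it over the libraries. Within each library the level of Mir298 was a nearly fixed share of that of its neighbour Mir296, 0.611 of it in replicate 1 (interval 0.597 to 0.626) and 0.606 in replicate 2 (0.588 to 0.624). These intervals overlap, and the ranges of Mir296 and Mir298 over the libraries do not.

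Mir483, the microRNA of the Igf2 intron, had 3380 counts in replicate 1 and 2390 in replicate 2. Its level was 530 CPM (512 to 548) and 580 CPM (557 to 603), and these intervals do not overlap. The mean of 555 ± 35.01 CPM (SD, n = 2) gave rank 123, between Mir374b (572 ± 42.0), whose range overlaps with it, and Mir300 (505 ± 29.6), a microRNA of the imprinted Dlk1-Dio3 region, whose range does not. Mir298 was 3.20-fold above Mir483 in replicate 1 and 2.95-fold in replicate 2.

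Mir675, which is cut from H19 and in mouse placenta limits growth and represses the receptor gene Igf1r, had 465 and 282 counts. Its level was 72.9 CPM (66.4 to 79.9) in replicate 1 and 68.4 CPM (60.6 to 76.8) in replicate 2, with overlapping intervals, and a mean of 70.7 ± 3.21 (SD, n = 2) at rank 209. Both neighbours in level, Mir615 above (72.0 ± 29.9) and Mir155 below (69.4 ± 8.81), overlapped with it. At the shared Igf2 and H19 locus, Mir483 was 7.27-fold above Mir675 in replicate 1 (6.60 to 8.03) and 8.48-fold in replicate 2 (7.49 to 9.62). Mir335 was 708-fold above Mir675 in replicate 1 and 722-fold in replicate 2.

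**Figure D2:**
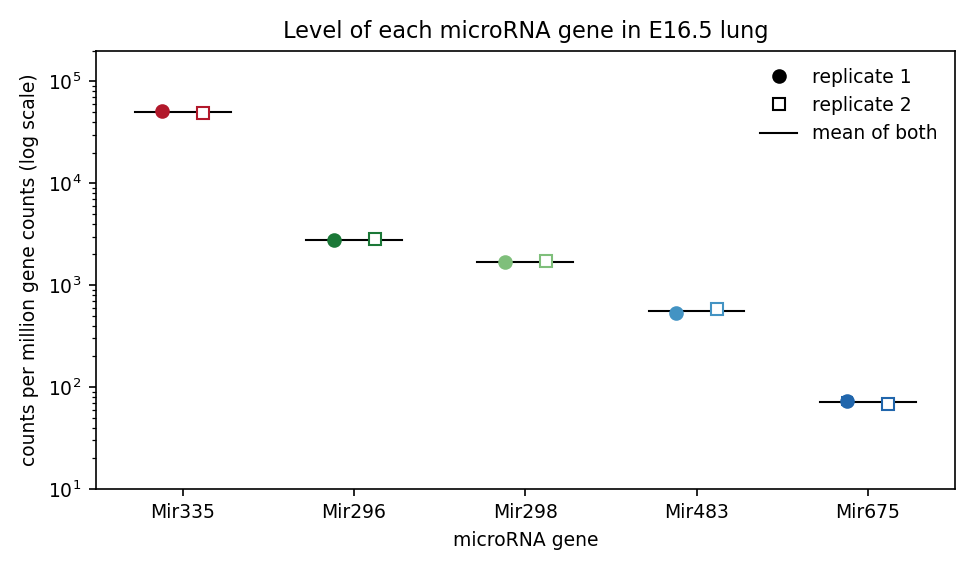
Level of each gene in CPM on a log axis, with a filled circle for replicate 1, an open square for replicate 2, error bars for the exact 95% counting interval (mostly smaller than the symbols) and a line for the mean. The genes fall in the order Mir335, Mir296, Mir298, Mir483 and Mir675 in both libraries, with means between 70.7 and 50501 CPM.

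A read in these libraries is a whole small RNA, so CPM needs no correction for transcript length. Dividing the means by hairpin length gives the same order, from 515 CPM per base for Mir335 to 0.841 CPM per base for Mir675. None of the 5 hairpins shares 22 bases with another microRNA gene of the tables. That match could miss a copy of miR-483-3p or miR-296-5p, which have 21 bases. It covers microRNA genes only, not the rest of the genome. Reads that matched several loci were 30.0% and 31.8% of those accounted for. They stand on a line of their own in the tables and are in no gene's count. A microRNA with copies at several loci can thus be counted too low, so ranks among detected genes can favour the 5 genes. By how much was not tested. How evenly the library preparation captures different small RNA ends was not tested, and it can move a level of one gene against another.

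In base composition the hairpins differed from each other as well. The share of G and C bases was 63.3% in Mir296, 63.1% in Mir675, 58.9% in Mir483, 53.7% in Mir298 and 42.9% in Mir335, beside a median of 50.5% over 295 detected genes with a RefSeq hairpin. Among those 295, 273 had a lower share than Mir296 and 55 a lower share than Mir335. The most abundant member is thus the one poorest in G and C. The minimum free energy predicted by RNAfold was -56.0 kcal/mol for Mir675, -44.3 for Mir335, -43.2 for Mir296, -42.7 for Mir298 and -33.8 for Mir483, and the median of detected genes was -36.7. A lower predicted energy than that of Mir675 was found in 10 of the 295. The member with the fewest counts thus had a predicted fold of low energy among detected genes. Energies were not corrected for hairpin length or base composition, and a link of either feature with level was not tested.

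**Figure D3:**
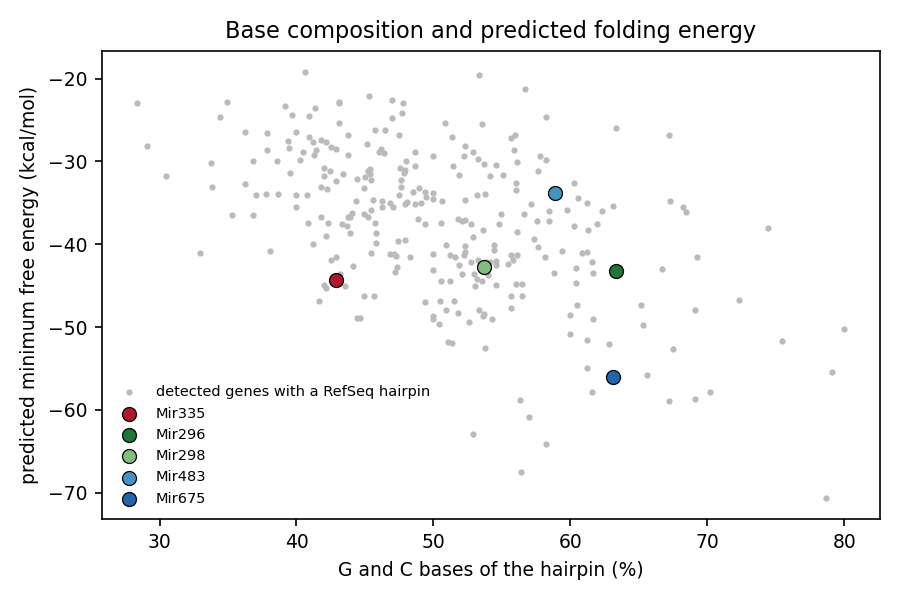
Share of G and C bases of each hairpin (x axis, %) against its predicted minimum free energy (y axis, kcal/mol), with grey points for detected genes with a RefSeq hairpin. Mir296 and Mir675 lie at 63.3% and 63.1%, Mir335 at 42.9%, and 4 of the 5 coloured points lie below the median energy of -36.7 kcal/mol.

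The replicates differed little in these genes. Each gene's counts were compared between the libraries with a two-sided exact binomial test against the gene totals, adjusted by the Benjamini-Hochberg method over the 347 detected genes. This test weighs counting error alone and compares these libraries, not conditions, since a single library per pool leaves nothing from which to estimate the spread. By it 163 genes, or 47.0%, differed at an adjusted p under 0.05, and of the 5 genes of the imprinted loci 2 did: Mir335 and Mir483. That share is near the background and is no result about these genes.

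Mir335 was higher in replicate 1 by 1.05-fold (95% interval 1.04 to 1.05, exact binomial test, adjusted p = 9.51e-58), and it rested on 532877 counts. Mir483 was lower in replicate 1, with a fold of replicate 1 over replicate 2 of 0.915 (0.868 to 0.964, exact binomial test, adjusted p = 0.00249). Under 3 other scalings of the libraries Mir483 no longer passed, with adjusted p between 0.0581 and 0.0979 by the same exact test. Mir675 had a fold of 1.07 (0.918 to 1.24, exact binomial test, adjusted p = 0.533), Mir296 of 0.981 (0.958 to 1.00, exact binomial test, adjusted p = 0.185) and Mir298 of 0.990 (0.960 to 1.02, exact binomial test, adjusted p = 0.632). For Mir675, Mir296 and Mir298 the intervals hold 1, and an adjusted p that misses the threshold does not show that the libraries were alike. The interval of Mir675, which had the fewest counts, was the widest of the 5.

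The log2 ratios of genes at a shared locus are set side by side here, with no test between them. On the log2 scale the ratio of replicate 1 over replicate 2 was 0.09 for Mir675 and -0.13 for Mir483, and it was -0.028 for Mir296 and -0.015 for Mir298. For Mir296 and Mir298 the sign turned under 3 other scalings, so no direction is given for them. All 5 genes lay within 1.5-fold between the libraries, as did 314 of the 347 detected genes. The absolute log2 ratio had a median of 0.066 over the 5 genes, of 0.16 over all 347 detected genes and of 0.12 over the 194 of them at 100 CPM or more, which leave out Mir675. Of these 194, 9 had a smaller ratio than Mir298 and 18 a smaller one than Mir296. By gene totals the Gnas pair was thus among the most alike between the pools. Its place under the other scalings was not worked out. Some markers of other tissues differed more than the 5 genes did, each past the same binomial test. Mir122 of liver was higher in replicate 2, and so were the skeletal muscle genes Mir206 (294 and 643 CPM in replicates 1 and 2) and Mir133b (3.29 and 9.94). Mir451a of red cells (747 and 408 CPM) and Mir208a of heart muscle (536 and 324) were higher in replicate 1, so the near-equal muscle sums hide opposite differences. The part of these tissues in the differences of Mir335 and Mir483 was not tested.

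**Figure D4:**
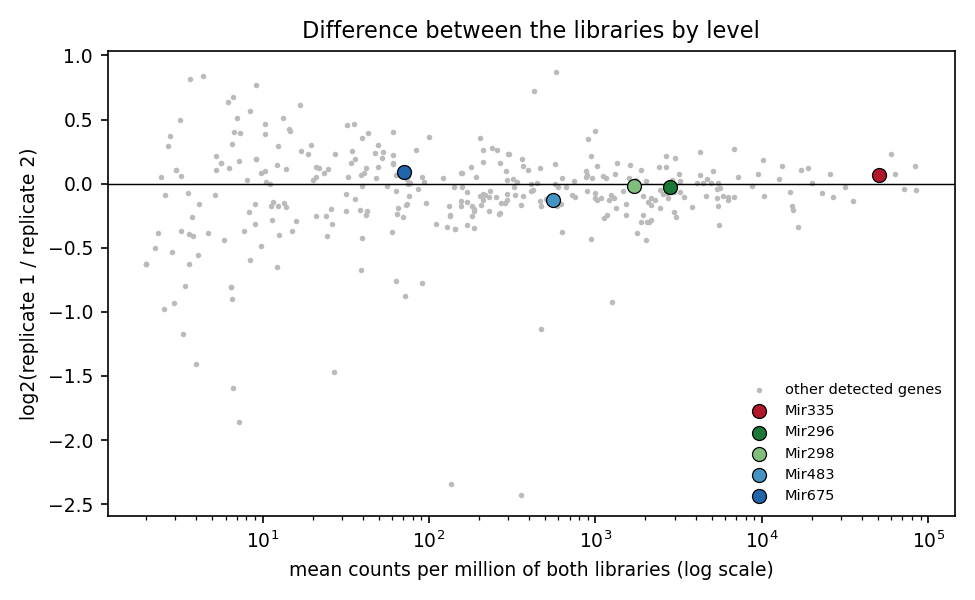
Log2 of replicate 1 over replicate 2 (y axis) against the mean level in CPM (x axis, log scale) for the 347 detected genes, with the 5 genes coloured. All 5 lie close to the line of no difference, between -0.13 for Mir483 and 0.09 for Mir675.

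The tables allow a comparison with microRNA genes of other imprinted regions, taken by coordinates as those within a gene of a list of imprinted genes or between Dlk1 and Dio3. There were 168 such genes, of which 60 were detected: 48 of 59 in the Dlk1-Dio3 region of chromosome 12, 10 of 107 in Sfmbt2 on chromosome 2, and a single gene each in Usp29 and in the overlapping genes Blcap and Nnat. The 60 detected genes had a median of 283 CPM, all 347 detected genes a median of 180 CPM, and the 5 genes of the Mest, H19, Igf2 and Gnas loci a median of 1703 CPM. No test goes with these medians, and the sets were taken by different rules. The 5 genes were taken by symbol, and Mir296 and Mir298 lie within no listed gene, so the coordinate rule would leave them out. The median of 1703 CPM is the level of Mir298 itself. Among Mir335, Mir483 and Mir675, which lie within listed genes, the middle level is that of Mir483, at 555 CPM. Many Sfmbt2 genes are numbered copies, such as Mir467a-2 at 0 counts in both libraries, and reads that match several loci are in no gene's count. Detection and levels in Sfmbt2 can thus be understated, and by how much was not tested. The most abundant gene of the Dlk1-Dio3 region was Mir411, at 9716 CPM in replicate 1 and 9197 in replicate 2. In Sfmbt2 it was Mir467d (964 and 934 CPM), in Usp29 Mir3099 (14.3 and 17.5 CPM) and in Blcap and Nnat Gm23134 (3.14 and 2.42 CPM).

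Mir335 had the highest mean of the 65 detected microRNA genes of imprinted regions, 179-fold above the median of the 60 others. The 5 genes held 5.56% of gene counts and all 168 others together 6.51%, a share that leaves out reads matching several loci. Mir296 took place 11 and Mir298 place 15 among the 65, with 8 and 12 of the 60 others above them in both libraries. Mir483 took place 28, with 21 others above it in both libraries, and Mir675 place 51, with 44. Mir335 lay above 98.3% of detected genes and Mir675 above 39.8%.

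**Figure D5:**
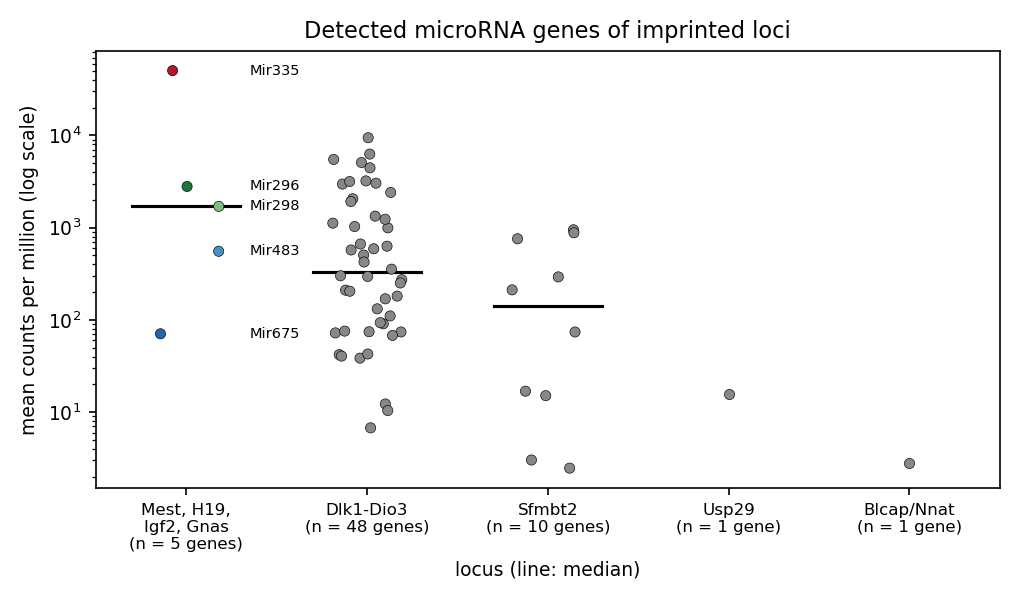
Mean level in CPM (y axis, log scale) of each detected microRNA gene by imprinted locus, with a line at the median where a locus has more than a single gene. Mir335 lies above all others, and Mir675 lies within the lower part of the Dlk1-Dio3 genes. The medians are 1703 CPM for the 5 genes, 328 for Dlk1-Dio3 and 143 for Sfmbt2. The 5 genes were taken by symbol and the others by coordinates.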

How the data were processed

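Small RNA libraries of 2 lung pools were analysed as 1 group. The authors deposited read counts per microRNA gene with no normalization, and build mm10 with GENCODE release M4 is named per the file headers. Neither aligner nor counter nor trimming is given in the sources used here. Counts without regard to strand were used, a column that equals the sum of both strand columns in all 1973 genes, and the 4 summary lines were left out. CPM was computed over gene counts. Symbols and positions come from GENCODE M21 on the same build (1894 of 1973 identifiers matched), sequences from RefSeq.

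Detected means at least 10 counts in each library. Tests were exact binomial tests with Benjamini-Hochberg adjustment. Intervals and floors (3 counts) cover counting error only, since reads are not independent molecules. edgeR 4.0.16, DESeq2 1.42.0, R 4.3.3, Python 3.11.15, scipy 1.17.1 and RNAfold 2.7.2 were used. Named are the 5 genes, the detected gene next above and below each in mean CPM, microRNA genes within 100 kb, genes sharing a seed and the most abundant gene of each other imprinted locus. Members and lists were chosen with earlier results of these data known. Alternatives covered count column, scaling, denominator, count minimum, test and each replicate left out.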

Additional observations from a re-analysis of the deposited data

Results flagged for a closer look

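Mir335 had 8 opposite-strand counts in replicate 1, above the 3 counts that a count of 0 allows, in a column that the levels above do not separate. They are 0.00243% of its counts there, replicate 2 had 0, and over all genes the opposite strand held 2.64% and 2.71% of counts in replicates 1 and 2. Mir675 had 2 such counts in replicate 1, and the other 3 genes had 0 in both libraries.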

How the results depend on the processing

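Levels of all 5 genes moved in one step with the denominator. Without the 10 most abundant genes in the total they were 107794 for Mir335, 5973 for Mir296, 3634 for Mir298, 1183 for Mir483 and 150.8 for Mir675 CPM, and with all reads of the table as total 24836, 1377, 837, 273 and 34.7 CPM in that order. With sense-strand counts only, Mir296 was at 2877 and Mir298 at 1749.9 CPM, more than their small SD away. The log2 ratio of replicate 1 over replicate 2 turned for Mir296 to 0.024 with TMM factors, 0.016 with DESeq2 size factors and 0.015 without the 10 most abundant genes, and for Mir298 to 0.037, 0.029 and 0.028. Under the same 3 settings Mir483 kept its sign at -0.077, -0.085 and -0.086 but no longer passed. Thus 1 of 5 genes, Mir335, passed in place of 2. Of all 347 detected genes, 153, 156 and 156 passed in that order of settings, beside 163 by gene totals. Neither count of the 5 is a result about these genes. These 3 settings differ in the scale alone: the median log2 ratio of detected genes is -0.052 by gene totals and 0.00 with TMM factors. The median of the other detected imprinted-locus genes was 238 CPM with sense counts, 175 with a minimum of 1 count, 328 with a minimum of 50, and 259 to 282 CPM with a replicate left out. Mir483 over Mir675 was 7.27 to 8.48 and Mir298 over Mir296 0.606 to 0.611 with a replicate left out. With edgeR's exact test 0 of 5 genes passed (0 at an unadjusted p under 0.05), beside 5 of all 347 detected genes. The dispersion of that test comes from the very difference it tests, that between these 2 libraries. The count of 0 therefore says nothing about whether the calls depend on the processing. With 2 libraries, the SD of each level rests on 1 difference. No paired analysis was possible because the samples form a single group.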
